A study of Mus musculus with 60 samples.

Results

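T cell receptor variable segment genes (V segments) were followed in whole blood of mice given BIO 300 (a powder formulation of genistein), total body irradiation (TBI), or both. They comprised every gene whose name begins with Trav, Trbv, Trdv or Trgv in any of the deposited differential expression tables, which list the genes left after the authors' low-expression filter. Of 49315 genes counted, 42 met this rule, namely 21 alpha (Trav), 18 beta (Trbv), 2 delta (Trdv2-2 and Trdv5) and 1 gamma segment (Trgv2). The rule used symbols and a filter on low expression, not the direction of any change. The tables were not equally inclusive, and 10 of these segments were listed in all 10 tables whereas 7 were listed in 1 table only.

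All 60 mice were male CD2F1 animals (the F1 cross of BALB/c and DBA/2), 5 to 6 weeks old at purchase and housed 3 per cage. All received vehicle or BIO 300 by mouth for 6 days, 2 doses per day, so the controls carried the same dosing. There were 10 groups of 6 mice. Blood was drawn from 1 set of mice, dosed with vehicle or with BIO 300 at 50, 100 or 200 mg/kg, on Day 0, which fell 24 h after dosing ended, and from a separate set on Day 1, at 48 h. The remaining groups received vehicle or 200 mg/kg BIO 300, then 9.2 Gy TBI on Day 0, and were sampled 24 h after irradiation, on Day 1. Library totals ran from 15099415 to 45589415 counts, and 10 mice, at most 2 in any group, had over 100 CPM (counts per 1000000) of the hepatocyte gene Alb. Levels below are CPM scaled by the trimmed mean of M-values (TMM) over all mice.

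T cells recognise antigen through a receptor of paired chains, alpha with beta in most blood T cells and gamma with delta in a smaller population. Each chain is assembled in the thymus when 1 of many V segments is joined to downstream segments and spliced to a constant region, so a mature T cell clone carries mainly 1 productive V segment per chain. In a bulk sample the level of a V segment therefore depends on how many circulating T cells use it and on how much receptor RNA each cell holds, and fewer cells cannot be told apart from less RNA per cell.

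The segments carried few reads. Over the 60 mice the 42 genes held 66102 counts, 103 to 3711 per mouse (median 796.5). Beta segments held 50328 of them, alpha segments 12160, delta segments 2011 and Trgv2 1603. Members covered most of the beta locus but not of the others. The 107 annotated alpha segments that did not meet the rule held 8090 counts, 40.0% of all Trav counts, the 17 other beta segments 1128 counts, 2.19% of all Trbv counts, and the 4 other delta segments 831 counts, 29.2% of all Trdv counts. All but 1 of the gamma segments are named Tcrg-V in the annotation, so 6 of them, with 1836 counts, lay outside the rule and are described with the related genes.

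V segments end in a conserved cysteine codon just before the junction with the next segment, and these 3′ ends distinguish close relatives within a family. The sequences, copy numbers and gene classes used here are those of the reference annotation (GENCODE M21, GRCm38). They were not read from the CD2F1 mice, whose segments may differ. The last 60 bases of the annotated transcripts of segments on which the results turn are printed 5′ to 3′, with capitals marking the cysteine codon and the codon 2 before it, commonly tyrosine.
Trbv13-1: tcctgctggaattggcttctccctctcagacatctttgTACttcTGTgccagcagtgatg
Trbv13-2: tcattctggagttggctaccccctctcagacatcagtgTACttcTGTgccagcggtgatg
Trbv13-3: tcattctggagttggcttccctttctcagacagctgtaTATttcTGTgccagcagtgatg
Trbv12-2: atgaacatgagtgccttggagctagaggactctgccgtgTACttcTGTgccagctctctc
Trbv24: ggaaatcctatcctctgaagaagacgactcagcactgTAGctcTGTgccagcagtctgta
Trav3-3: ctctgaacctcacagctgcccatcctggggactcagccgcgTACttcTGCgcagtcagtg
Trav14d-3-dv8: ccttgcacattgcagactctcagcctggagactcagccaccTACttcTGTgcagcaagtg
Trdv2-2: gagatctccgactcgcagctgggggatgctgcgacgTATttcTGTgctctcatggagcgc
Trdv5: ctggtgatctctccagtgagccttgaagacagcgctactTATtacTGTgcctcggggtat
Trgv2: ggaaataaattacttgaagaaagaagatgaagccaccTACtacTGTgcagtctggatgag
Of the 42 segments, 22 carried TAC and 13 carried TAT at the upstream codon, 1 carried TTT, and in 5 no cysteine codon followed by GC was found in this window. Trbv24, which the annotation classes as a pseudogene, was the 1 segment with the stop codon TAG there. Over a 250-base window Trbv13-1 shared 87.2% of its bases with Trbv13-2 and 84.8% with Trbv13-3, and the latter pair shared 91.2%.

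The alpha and delta segments lie on chromosome 14, where delta segments are interspersed among alpha segments, the beta segments on chromosome 6 and Trgv2 on chromosome 13. Trbv13-1 spans chr6:41116007-41116468 on the plus strand, Trbv12-2 chr6:41118851-41119364, Trbv13-2 chr6:41121396-41121832 and Trbv24 chr6:41218091-41218557. Among alpha segments, Trav3-3 spans chr14:53665929-53666506 and Trav14d-3-dv8 chr14:53078452-53079045, both plus. Counts of alpha segments can be uncertain because the locus holds near copies. Within Trav3-3, 40.0% of 50-base words also occur in other annotated genes, chiefly Trav3n-3, and within Trav14d-3-dv8 38.8%. The same share was 0.344% for Trbv13-2 and nil for Trbv13-1.

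In vehicle-treated mice on Day 1 the per-length level (CPM per kilobase of exon) was highest for Trbv13-2 at 20.4, Trbv13-1 at 18.3 and Trbv20 at 12.9, followed by Trbv31 at 7.88 and Trbv1 at 6.91. The most abundant alpha segments by the same measure were Trav3-3 at 2.93 and Trav14d-3-dv8 at 2.48. Trgv2 reached 2.07, Trdv2-2 1.66 and Trdv5 0.772 CPM per kilobase. These 5 beta segments thus exceeded every alpha, gamma and delta segment by this measure. The measure uses all exon bases and is not corrected for sequence shared with near copies. That share was 40.0% of 50-base words in Trav3-3 and nil in Trbv13-1, so its part in the ranking was not tested.

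Summed alpha and beta segment levels were similar across both vehicle groups and the 50 mg/kg Day 1 group, and low in the 4 groups that combined Day 1 with 100 mg/kg, 200 mg/kg or TBI. The alpha sum was 6.99, 9.98 and 11.3 CPM (lowest, median and highest of 6 mice) in vehicle-treated mice on Day 1. It was 1.18, 2.38 and 3.79 CPM with 100 mg/kg, 0.325, 2.76 and 3.44 CPM with 200 mg/kg, 0.601, 1.62 and 2.68 CPM after TBI with vehicle, and 0.306, 2.13 and 2.53 CPM after TBI with 200 mg/kg. Every mouse of these 4 groups lay below every vehicle-treated mouse of Day 1. The group means were 25.1%, 25.2%, 15.7% and 18.6% of the vehicle mean of 9.75 ± 1.54 CPM (SD, n = 6).

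The beta sum was 32.0, 41.7 and 45.7 CPM in vehicle-treated mice on Day 1. The range was 10.3 to 18.4 CPM at 100 mg/kg, the highest mouse at 200 mg/kg had 25.6 CPM, and the range was 4.28 to 16.8 CPM after TBI with vehicle and from 4.61 to 20.0 CPM after TBI with 200 mg/kg. These groups did not overlap the vehicle mice either, and their means were 37.3%, 37.3%, 27.4% and 35.9% of the vehicle mean of 39.6 ± 5.47 CPM. Scaling by total counts in place of TMM kept the direction and gave smaller percentages, 14.7%, 14.2%, 19.8% and 21.6% for beta and 9.89%, 9.61%, 11.6% and 11.3% for alpha. Read in relation to the whole annotated locus, the result for alpha was close to that for the members, since all 128 Trav segments together stood at 26.3%, 27.4%, 17.3% and 21.3% of the vehicle mean. All 35 Trbv segments together stood at 36.9%, 36.8%, 28.2% and 36.7%. The 17 beta segments outside the rule, which hold 2.19% of Trbv counts, stood at 20.9% and 15.8% at 100 and 200 mg/kg. After TBI with vehicle and with 200 mg/kg they stood at 66.6% and 71.7%, a smaller decrease than that of the members.

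**Figure D1:**
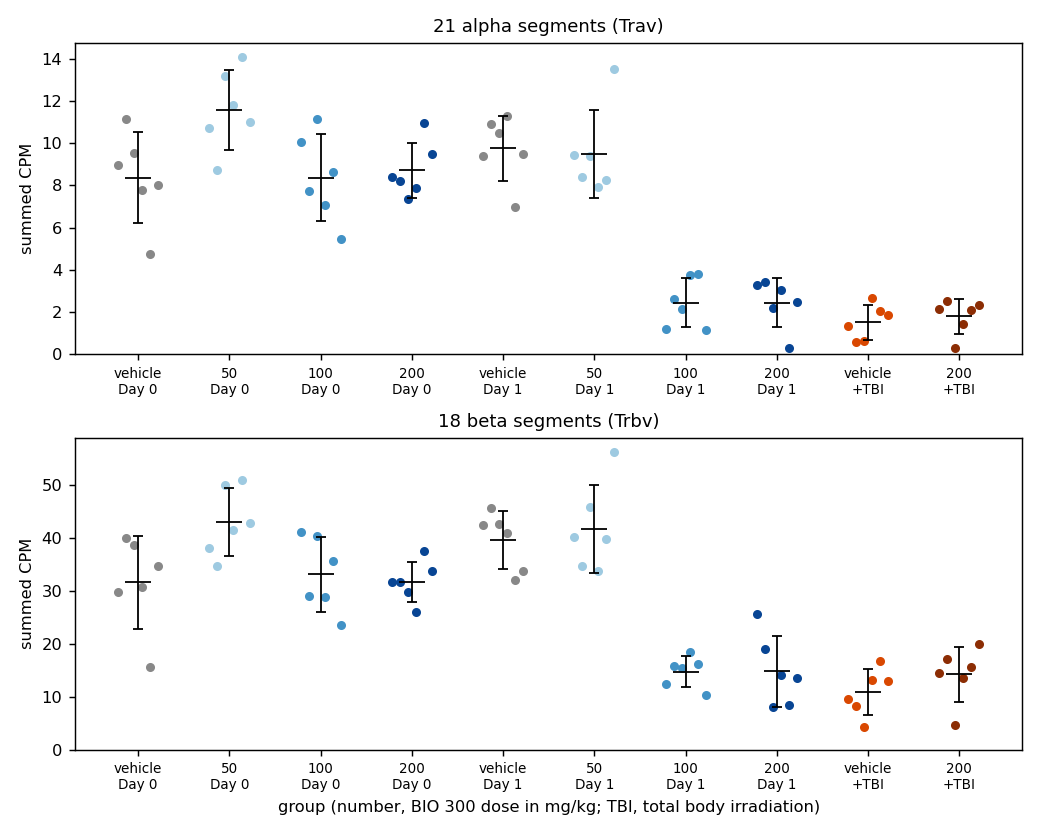
Summed level of the 21 Trav segments and of the 18 Trbv segments (vertical axes, TMM-scaled CPM) in each mouse of the 10 groups (horizontal axis), with points for mice and lines with bars for the mean and SD of 6 mice. The 100 mg/kg Day 1, 200 mg/kg Day 1 and both irradiated groups lie below all vehicle-treated mice of Day 1 in each panel.

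The question of what irradiation did to the segments is addressed by irradiated against non-irradiated vehicle-treated mice. With edgeR's quasi-likelihood test and Benjamini-Hochberg adjustment over all genes tested (a call needs both an adjusted p below 0.05 and a log2 fold change beyond 1 in either direction), 38 of the 42 segments fell and 2 rose against vehicle on Day 1. Of all 25146 genes tested, 16.4% fell and 19.6% rose. The median log2 fold change was -2.46 over the segments and 0.09 over all genes. All 21 alpha segments fell (median -2.72), as did 16 of 18 beta segments (median -1.97) and Trdv2-2, while Trbv24 and Trdv5 rose and Trbv12-2 and Trgv2 were not called. The number of called segments was 36 to 40 when any single mouse was left out.

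Among beta segments Trbv14 showed the largest decrease of those reaching 1 CPM. It stood at 1.67, 1.95 and 2.33 CPM in vehicle-treated mice and at 0.0282, 0.228 and 0.335 CPM after TBI. The groups were far apart, and the log2 fold change was -3.28 (SE 0.45, edgeR adjusted p = 0.00011). Trbv5, Trbv3 and Trbv4 fell by 3.24, 3.00 and 2.99 on the log2 scale. Counts of Trbv4 and Trbv5 share sequence with 5830405F06Rik, an overlapping gene on the same strand that holds 295 and 292 of their exon bases, so their separation from it is uncertain.

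Trbv13-1 had 5.67, 6.61 and 7.80 CPM in vehicle-treated mice on Day 1 and 0.479, 1.26 and 1.80 CPM after TBI, a log2 fold change of -2.48 (SE 0.32, adjusted p = 6.95e-05). Its relative Trbv13-2 had 5.10, 7.04 and 8.38 CPM against 1.55, 2.73 and 4.77 CPM, a log2 fold change of -1.31 (SE 0.25, adjusted p = 0.0011). Neither pair of groups overlapped. The decrease of Trbv20, from a median of 4.34 to 0.814 CPM, was 2.53 on the log2 scale.

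Among alpha segments, Trav14d-3-dv8 stood at 0.882, 1.14 and 1.30 CPM in vehicle-treated mice and at 0.0668, 0.114 and 0.335 CPM after TBI, a log2 fold change of -2.72 (SE 0.40, adjusted p = 0.00016). Trav3-3 stood at 0.945, 1.16 and 1.57 CPM against 0, 0.225 and 0.40 CPM, a log2 fold change of -2.50 (SE 0.56, adjusted p = 0.00313). No irradiated mouse reached the lowest vehicle-treated mouse for either. Trav13-1 fell by 3.90 on the log2 scale, from a median of 0.498 CPM to 0.035 CPM.

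The same irradiated mice were also set against vehicle-treated mice of Day 0, a comparison that shares its treated animals with the preceding one. Here 28 segments fell and 1, Trbv24, rose, beside 11.8% and 15.1% of all genes, with a median of -1.98 over the segments and 0.18 over all genes. The called segments were 17 alpha and 11 beta among those lower.

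BIO 300 was compared with vehicle on Day 1 at 3 doses that share 1 vehicle group. At 100 mg/kg 35 of 42 segments fell and 1 rose, with a median log2 fold change of -1.74, beside 30.6% lower and 18.2% higher among 23699 genes and an all-gene median of -0.38. At 200 mg/kg 24 fell and 1 rose, with a median of -1.61, beside 30.5% lower and 17.3% higher among 23513 genes and an all-gene median of -0.48. The segment medians therefore lay below a general shift that TMM scaling left in both comparisons. Total-count scaling moved these medians to -3.05 and -3.02, and the all-gene medians to -1.76 and -1.96, and then 39 segments were called at 200 mg/kg and none was called higher at either dose. At 50 mg/kg no segment was called by edgeR, none had an unadjusted p under 0.05, DESeq2 called none, and 0.0% of all genes were called.

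By class, 19 of 21 alpha segments fell at 100 mg/kg and 15 fell at 200 mg/kg, with medians of -1.90 and -1.76, and 15 and 9 of 18 beta segments fell, with medians of -1.61 and -1.40. The vehicle values are those given above. Trbv13-1 had 1.40, 2.02 and 2.95 CPM at 100 mg/kg, a log2 fold change of -1.59 (SE 0.21, adjusted p = 1.43e-05). At 200 mg/kg it had 0.383, 1.97 and 4.16 CPM, a log2 fold change of -1.56 (SE 0.40, adjusted p = 0.00338). All mice of both groups lay below the vehicle-treated mice.

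Trbv4 showed the largest decrease at 100 mg/kg among beta segments reaching 1 CPM. Its levels were 1.66, 2.12 and 2.73 CPM in vehicle-treated mice, 0.120, 0.417 and 0.738 CPM at 100 mg/kg and 0.0957, 0.393 and 0.684 CPM at 200 mg/kg. No treated mouse overlapped the controls, and the log2 fold changes were -2.22 (SE 0.36, adjusted p = 0.000102) and -2.33 (SE 0.37, adjusted p = 7.87e-05). Trbv3 fell by 1.79 and 2.44, Trbv2 by 1.63 and 2.00, Trbv31 by 1.33 and 1.92 and Trbv1 by 1.62 and 1.26 on the log2 scale at 100 and 200 mg/kg.

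Trbv13-2 had 2.26, 3.19 and 3.87 CPM at 100 mg/kg, a log2 fold change of -1.08 (SE 0.17, adjusted p = 9.32e-05), and 2.01, 2.77 and 6.18 CPM at 200 mg/kg, a log2 fold change of -0.97 (SE 0.25, adjusted p = 0.00363) that did not pass the fold threshold. At 200 mg/kg its mice overlapped the vehicle group. Without mouse 42 the change at 100 mg/kg was -0.999 and was no longer called. Trbv14 at 100 mg/kg, -1.01 (SE 0.27, adjusted p = 0.00454), also sat at the threshold and was lost without any 1 of mice 26, 27, 28, 37, 38, 39, 41 or 42, with values between -0.907 and -0.999.

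Trav14d-3-dv8 had 0.07, 0.198 and 1.26 CPM at 100 mg/kg, where 1 mouse reached the vehicle range, and 0, 0.227 and 0.413 CPM at 200 mg/kg, where none did. The log2 fold changes were -1.54 (SE 0.54, adjusted p = 0.0215) and -2.26 (SE 0.46, adjusted p = 0.000662). Trav3-3 had 0, 0.241 and 0.369 CPM at 100 mg/kg, a log2 fold change of -2.39 (SE 0.41, adjusted p = 0.000156). At 200 mg/kg it had 0, 0.285 and 1.03 CPM, overlapping the vehicle mice, and a log2 fold change of -1.61 (SE 0.58, adjusted p = 0.0253) that was -1.47 (adjusted p = 0.0522) without mouse 48.

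A few beta segments did not follow the median of their class. Trbv12-2 had 1.23, 1.39 and 2.06 CPM in vehicle-treated mice on Day 1. It had 0.738, 1.33 and 2.14 CPM at 100 mg/kg, 0.879, 1.34 and 1.82 CPM at 200 mg/kg, and 0.479, 1.17 and 1.94 CPM after TBI with vehicle. All groups overlapped, and the log2 fold changes were 0.01, -0.08 and -0.36, none of them called under TMM. Its direction at 100 mg/kg reversed with total-count scaling, which gave -1.43 at 100 mg/kg, -1.64 at 200 mg/kg and -0.89 after TBI, the first pair of them called lower. At 200 mg/kg Trbv16, Trbv29, Trbv15 and Trbv19 had log2 fold changes of -0.18, -0.72, -0.63 and 0.45 that were not called, whereas at 100 mg/kg Trbv29, Trbv15 and Trbv19 fell by 1.97, 1.25 and 1.77 and Trbv16, at -0.88, was not called. The difference between the doses was not tested.

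**Figure D2:**
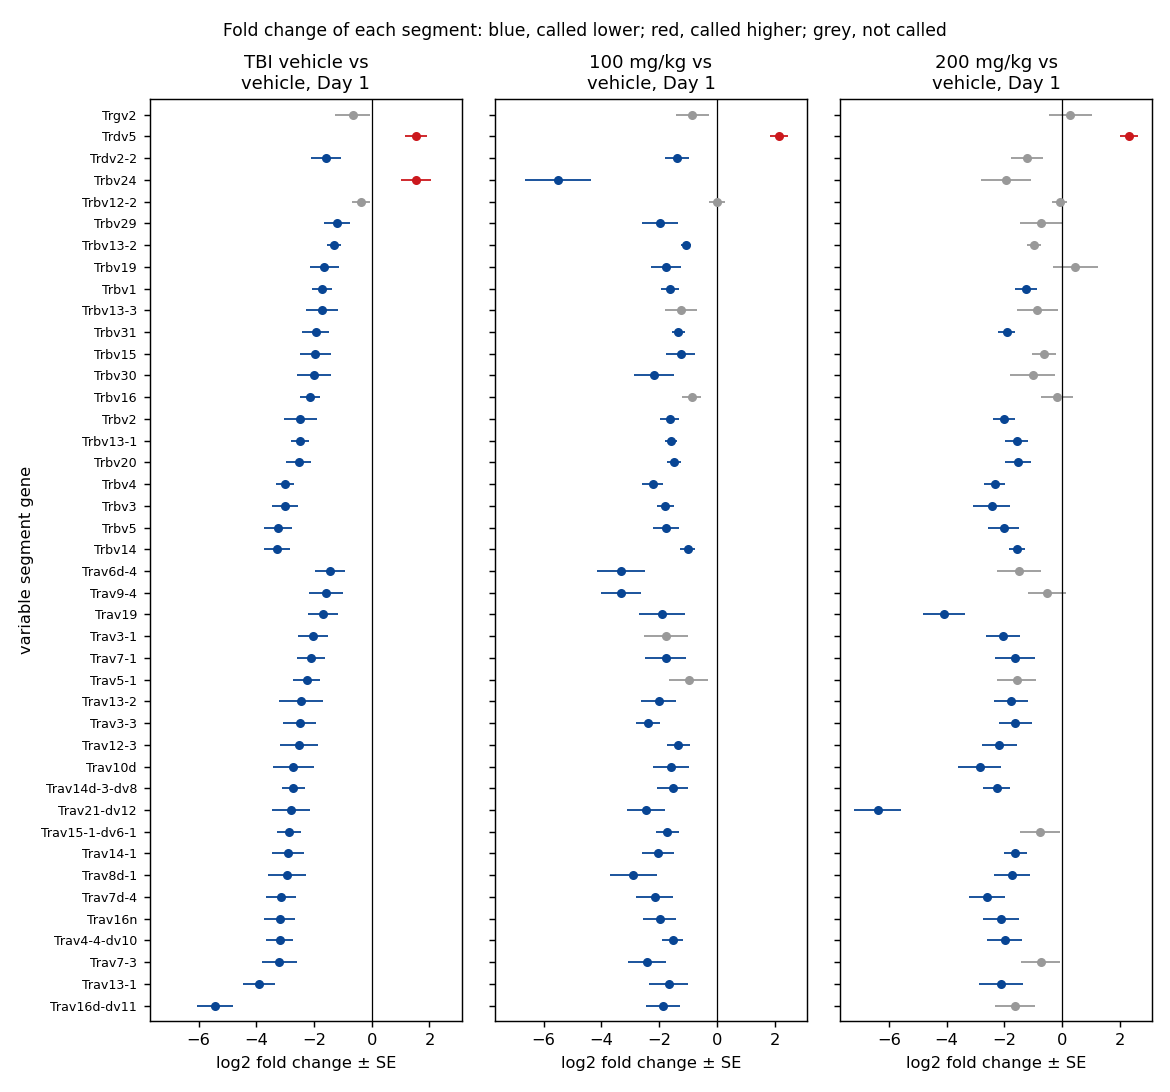
Log2 fold change of each of the 42 segments (rows, by class) against vehicle-treated mice of Day 1 for TBI, 100 mg/kg and 200 mg/kg. Colour shows the call, with blue for lower, red for higher and grey for not called. Most alpha and beta points lie left of zero, and Trdv5 lies right of zero in all 3 comparisons.

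Some segments were at 0 in a whole group. Trav21-dv12, a segment on the alpha and delta locus with no 50-base word shared with another annotated gene, had 92 counts over the 6 vehicle-treated mice of Day 1 and 0 in all 6 mice at 200 mg/kg. Against a floor of 3 counts over the group this was at least 12.0-fold lower. Trbv24 had 48 counts in vehicle-treated mice and 0 in all 6 mice at 100 mg/kg, at least 6.87-fold lower. Intervals and floors cover counting error only.

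Trbv24, annotated as a pseudogene in the reference, rose after irradiation. It had 0.0315, 0.205 and 0.418 CPM in vehicle-treated mice on Day 1, 0.20, 0.816 and 0.879 CPM after TBI with vehicle and 0.134, 0.48 and 0.671 CPM after TBI with 200 mg/kg. At 200 mg/kg without TBI 4 of 6 mice had 0 counts and the highest had 0.217 CPM. Of the irradiated vehicle mice, 4 lay above every control and 2 within the control range. The log2 fold change was 1.53 against vehicle on Day 1 (SE 0.52, adjusted p = 0.0289), 2.08 against vehicle on Day 0 (adjusted p = 0.0083) and 2.89 for irradiated against non-irradiated 200 mg/kg mice (SE 0.90, adjusted p = 0.0297). The first of these was 1.10 (adjusted p = 0.129) with total-count scaling, and it lost its call without any 1 of mice 28, 30, 49, 52, 53 or 54, with values between 1.42 and 1.49 and adjusted p between 0.0512 and 0.0578. The neighbouring segment Trbv23, which is not among the 42, had 10 counts over the vehicle-treated mice of Day 1 and 27 over the irradiated ones, a log2 fold change of 1.84 that was not called (adjusted p = 0.0996). In mice given 200 mg/kg it had 0 counts in all 6 mice without TBI and 19 counts over the 6 mice with TBI, and this difference was called higher (edgeR adjusted p = 0.00889).

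The delta segments moved in opposite directions. Trdv5, which lies downstream of the delta constant region on the opposite strand, had 0.201, 0.323 and 0.486 CPM in vehicle-treated mice on Day 1. It had 0.944, 1.51 and 2.08 CPM at 100 mg/kg, 1.21, 1.57 and 2.06 CPM at 200 mg/kg, 0.451, 0.823 and 2.20 CPM after TBI with vehicle, and 0.44, 1.81 and 2.91 CPM after TBI with 200 mg/kg. Every mouse given 100 or 200 mg/kg without TBI lay above all controls, the 50 mg/kg mice of Day 1 (0.0892, 0.512 and 0.767 CPM) overlapped them, and the irradiated groups overlapped the controls at their lowest mouse. The log2 fold changes were 2.15 (SE 0.31, adjusted p = 4.1e-05), 2.32 (SE 0.32, adjusted p = 2e-05) and, for TBI with vehicle, 1.53 (SE 0.39, adjusted p = 0.0065).

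These increases depended on the scaling. With total counts the log2 fold changes were 0.75 (adjusted p = 0.0523) and 0.79 (adjusted p = 0.0363) at 100 and 200 mg/kg, neither of them called, and after TBI the call remained. Trdv5 at chr14:54148662-54149294 (minus strand) shares 207 exon bases with Trdc, the delta constant gene at chr14:54142851-54148868 (plus strand). Whether the counting used strand is not given in the sources used here, so reads of the 2 genes may not be separable. Trdc itself had 49.8, 57.1 and 85.2 CPM in vehicle-treated mice, 297, 342 and 524 CPM at 100 mg/kg, 261, 365 and 422 CPM at 200 mg/kg and 72.6, 254 and 489 CPM after TBI with vehicle. It rose by log2 fold changes of 2.60, 2.52 and 2.07, and Trdj1, a delta joining segment, by 2.70, 2.72 and 2.03. The gamma constant genes did not rise with Trdc. In the same order, log2 fold changes were -0.86, -0.78 and -0.90 for Tcrg-C1 and -0.69, -0.11 and -0.68 for Tcrg-C2. For Tcrg-C4 they were -1.01, -0.09 and -0.69, and none of these was called. Trdv5 had a median of 5.17 counts per 1000 Trdc counts in vehicle-treated mice (3.79 to 6.45) and 4.10, 4.69, 3.85 and 5.11 in the 100 mg/kg, 200 mg/kg, TBI and TBI with 200 mg/kg groups.

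Trdv2-2, at chr14:53960944-53961602 on the plus strand, had 0.346, 0.673 and 1.00 CPM in vehicle-treated mice on Day 1. It had 0.0486, 0.258 and 0.48 CPM at 100 mg/kg, 0, 0.173 and 0.686 CPM at 200 mg/kg and 0, 0.252 and 0.334 CPM after TBI. It fell at 100 mg/kg (log2 fold change -1.39, SE 0.42, adjusted p = 0.00912) and after TBI (-1.59, SE 0.53, adjusted p = 0.0271), and was -1.20 (adjusted p = 0.0715) at 200 mg/kg. The TBI call was lost without mouse 25 (-1.43, adjusted p = 0.063) or mouse 28 (-1.53, adjusted p = 0.0529), and at 200 mg/kg the segment was called without mouse 43 (-1.90, adjusted p = 0.00642). In Trdv2-2, 52.6% of 50-base words are shared, mostly with Trdv2-1, and 105 exon bases overlap Gm43647 on the opposite strand. Per 1000 Trdc counts it went from a median of 10.6 (6.96 to 14.1) in vehicle-treated mice to 0.628 at 100 mg/kg, 0.519 at 200 mg/kg, 0.948 after TBI and 0.753 after TBI with 200 mg/kg, and in none of these groups did a mouse exceed 2.55.

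**Figure D3:**
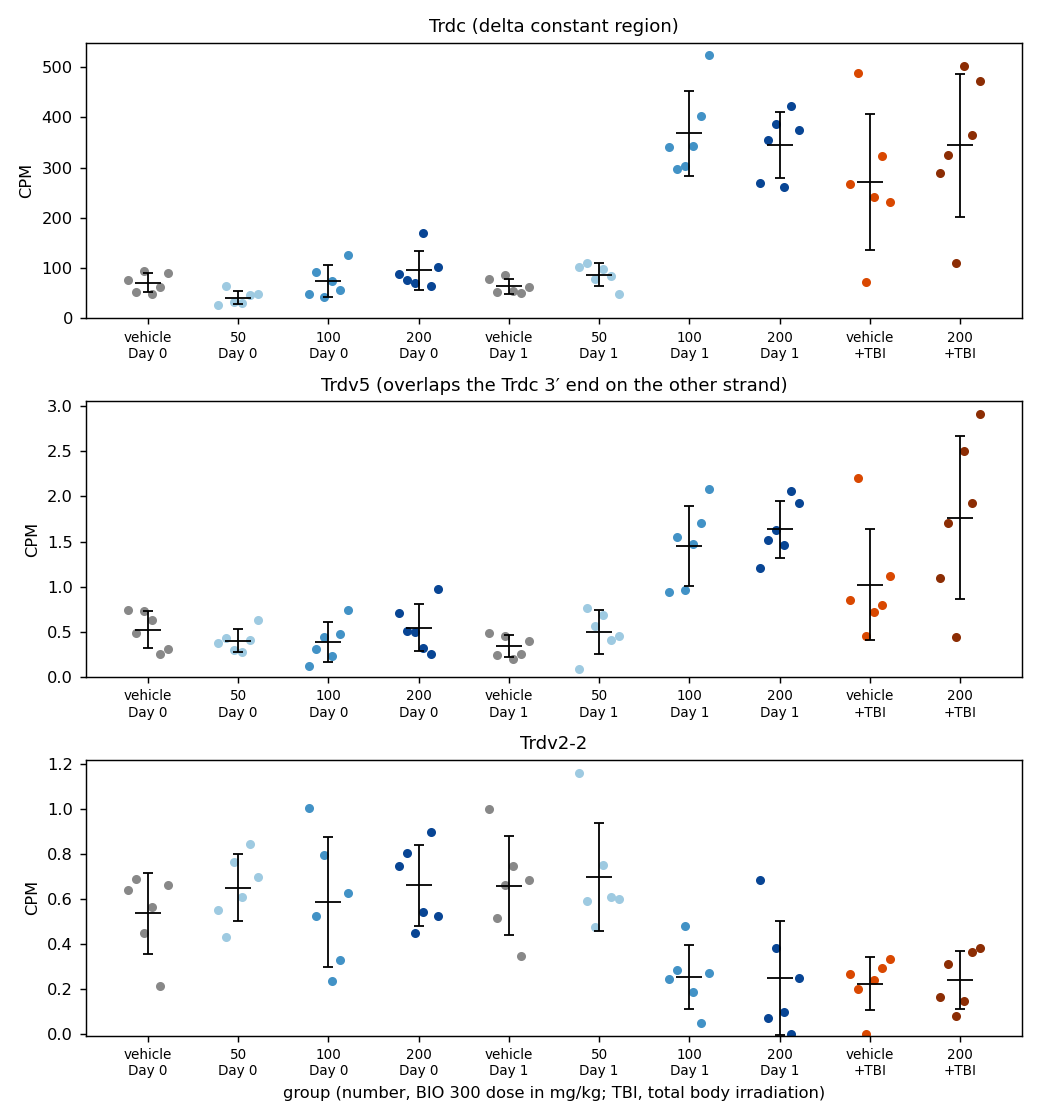
Levels of Trdv5, Trdv2-2 and the delta constant gene Trdc (vertical axes, TMM-scaled CPM) in each mouse of the 10 groups, points for mice and lines with bars for mean and SD of 6 mice. Trdv5 and Trdc are high on Day 1 at 100 mg/kg and at 200 mg/kg, where Trdv2-2 is low.

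Trgv2, on chr13:19336573-19337167, varied widely between mice of every group. It had 0.158, 0.838 and 2.83 CPM in vehicle-treated mice on Day 1, 0.271, 0.483 and 0.874 CPM at 100 mg/kg, 0.287, 0.372 and 3.79 CPM at 200 mg/kg and 0.32, 0.577 and 1.23 CPM after TBI. All groups overlapped, and the log2 fold changes of -0.85, 0.28 and -0.67 were not called (adjusted p = 0.198, 0.764 and 0.366). The sign at 200 mg/kg reversed with total-count scaling, to -1.21, and without mouse 44, to -0.60. Of the gamma segments under other symbols, Tcrg-V4 fell by 2.32 at 100 mg/kg and by 1.41 after TBI on the log2 scale, Tcrg-V1 fell by 1.40 after TBI and Tcrg-V7 by 3.13 after TBI. Tcrg-V6 fell at 100 mg/kg (edgeR adjusted p = 0.0244), with 1 count over the group beside 19 over the vehicle-treated mice of Day 1, and at 200 mg/kg (adjusted p = 0.00623), with 0 counts in all 6 mice. Per 100 counts of the gamma constant genes, Trgv2 had medians of 17.6 in vehicle-treated mice and 19.4, 29.4, 15.6 and 19.2 in the 100 mg/kg, 200 mg/kg, TBI and TBI with 200 mg/kg groups.

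The unequal changes altered the composition of the segment counts. Alpha segments were a median of 18.9% of member counts in vehicle-treated mice on Day 1, and 11.8%, 12.9%, 10.3% and 8.93% in the 100 mg/kg, 200 mg/kg, TBI and TBI with 200 mg/kg groups. Delta segments went from 1.90% (1.31 to 2.65%) to 7.74% (6.82 to 16.7%), 10.0% (5.71 to 18.5%), 7.96% (5.24 to 20.3%) and 9.76% (6.75 to 14.6%), with no overlap. The higher delta share was that of Trdv5, whose reads may not be separable from Trdc, with a median of 0.729% of member counts in vehicle-treated mice and 6.73%, 9.07%, 6.55% and 8.27% in these groups. Trdv2-2 had medians of 1.30% and 1.46%, 0.930%, 1.55% and 1.27%, and all of its groups overlapped the controls. The 4 delta segments outside the rule stood at 60.2%, 86.8%, 42.3% and 66.1% of their vehicle mean level. Beta segments stayed close, at 77.1% in vehicle-treated mice and 73.7 to 75.9% in these groups.

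Within the beta counts, Trbv12-2 took 3.01, 3.62 and 4.51% in vehicle-treated mice on Day 1. Its share was 4.00, 11.5 and 13.2% with 100 mg/kg, 3.94, 9.71 and 22.4% with 200 mg/kg, 7.23, 9.86 and 23.4% after TBI and 7.85, 11.5 and 18.9% after TBI with 200 mg/kg. Both irradiated groups lay above every vehicle-treated mouse, whereas each non-irradiated BIO 300 group overlapped them at its low end. Trbv13-1 took 14.0, 17.6 and 19.1% in vehicle-treated mice and 8.87 to 13.4% after TBI, below all controls. Trbv13-2 took 15.9, 17.9 and 18.5% in vehicle-treated mice and 21.0 to 36.2% after TBI, above all controls. The median share of Trbv14 was 5.13% with vehicle and 1.61% after TBI (0.658 to 3.35%), and the share of Trbv24 went from 0.514% to 5.82% (2.42 to 8.23%) after TBI with vehicle and 3.20% (2.15 to 3.93%) after TBI with 200 mg/kg. As shares of 1 total these values are not independent of each other.

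**Figure D4:**
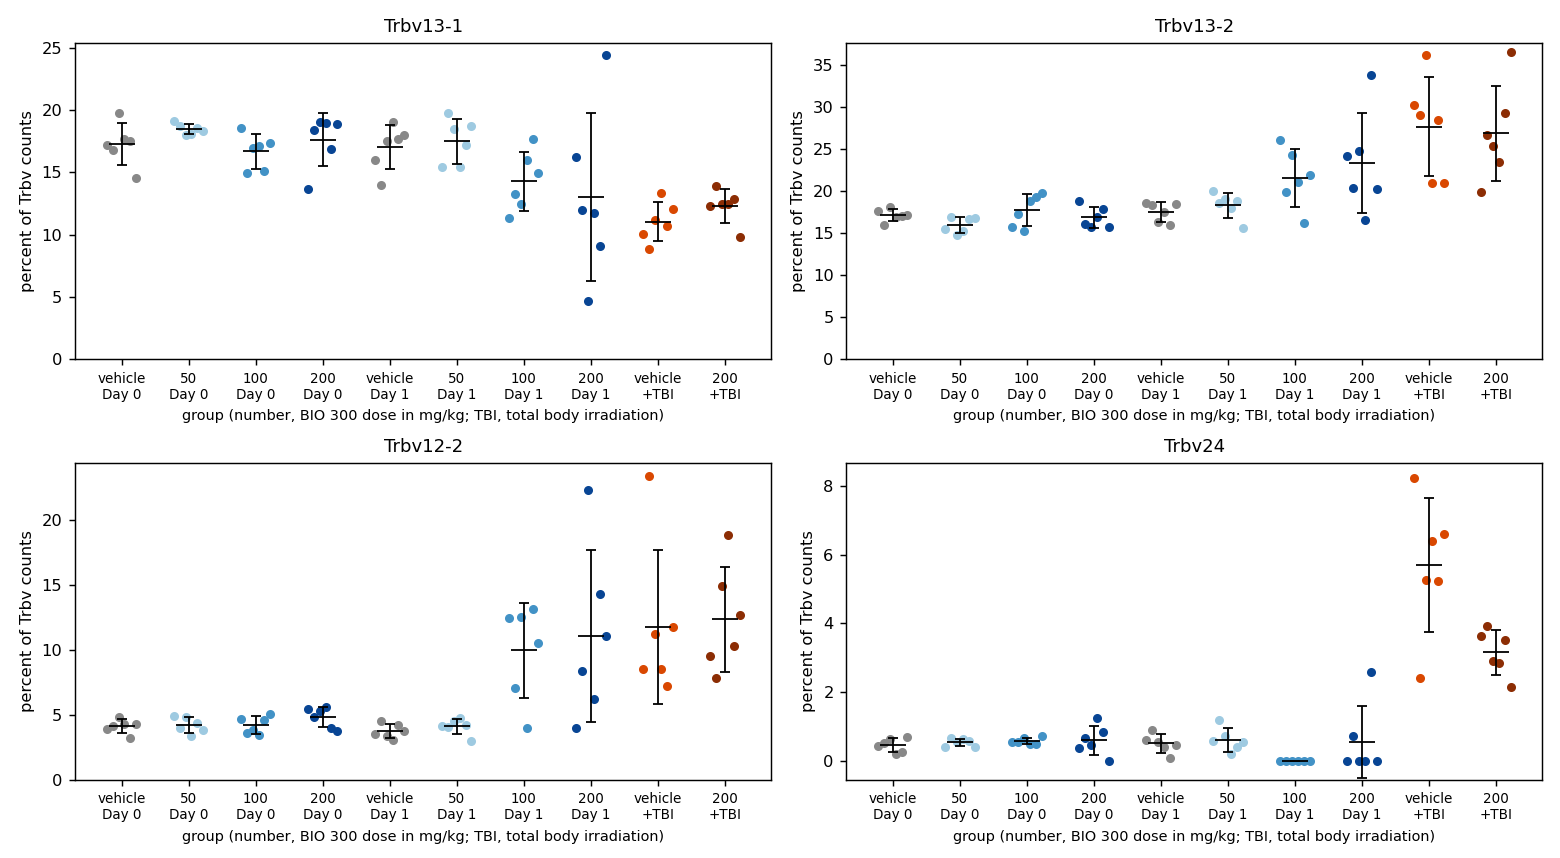
Share of all Trbv segment counts (vertical axes, percent) taken by Trbv13-1, Trbv13-2, Trbv12-2 and Trbv24 in each mouse of the 10 groups, points for mice and lines with bars for mean and SD of 6 mice. After TBI the shares of Trbv13-2, Trbv12-2 and Trbv24 lie above those of vehicle-treated mice of Day 1 and the share of Trbv13-1 lies below.

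The number of beta segments detected was compared at equal depth. Thinned to 200 beta counts, vehicle-treated mice on Day 1 showed a median of 17.2 of the 18 segments, 4 mice at 100 mg/kg 15.6, 3 mice at 200 mg/kg 16.6, 4 mice after TBI 17.4 and 6 mice after TBI with 200 mg/kg 16.8. Mice with fewer than 200 beta counts could not be included. The lowest value was 11.0 in mouse 48 at 200 mg/kg, in which 11 segments had any of the 217 beta counts. In mouse 44 of the same group Trbv19 took 25 of 275 beta counts, 9.09% (exact 95% binomial interval 5.97 to 13.1%).

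Both parents of the F1 strain carry endogenous mammary tumour virus superantigens, which remove T cells bearing particular beta segments during development. In vehicle-treated mice on Day 1 the 6 members in the list of superantigen-linked beta segments had a median of 1.82 CPM per kilobase (0.592 to 3.82) and the 12 other members 5.67 (0.612 to 20.4), so the ranges overlapped. This list, which includes Trbv12-2, took 9.88, 11.1 and 14.0% of beta counts in vehicle-treated mice, a median of 18.8% (8.50 to 26.6%) with 100 mg/kg and 20.4% (15.7 to 37.5%) with 200 mg/kg, and 19.3% (15.2 to 35.5%) and 21.4% (13.6 to 29.4%) after TBI with vehicle and with 200 mg/kg. Of 9 listed segments tested, members or not, 5 fell at 100 mg/kg, 2 at 200 mg/kg and 8 after TBI, and of 13 segments of the other families 12, 9 and 11 fell and 1 rose after TBI. Over all genes 30.6%, 30.5% and 16.4% fell in these comparisons, so the 2 of 9 at 200 mg/kg were no more than the share over all genes.

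V segment counts were also set against the constant genes of their own chains. On Day 1, Trbv counts per 100 counts of Trbc1 and Trbc2 had a median of 36.1 (34.9 to 37.5) with vehicle, 36.2 (33.2 to 50.6) with 100 mg/kg, 39.5 (30.0 to 49.7) with 200 mg/kg, 52.9 (45.5 to 72.9) after TBI and 50.2 (43.2 to 56.8) after TBI with 200 mg/kg. The irradiated groups lay above all vehicle-treated mice and the non-irradiated BIO 300 groups overlapped them. For Trav counts per 100 Trac counts the median was 17.7 (15.0 to 19.0) with vehicle. In the same order it was 14.4 (10.9 to 19.6), 15.3 (4.17 to 23.7), 14.8 (10.5 to 21.0) and 13.1 (6.96 to 15.7) in the 4 groups. All 4 groups overlapped the vehicle-treated mice in this ratio. Trac fell at 100 mg/kg, 200 mg/kg and after TBI, with log2 fold changes of -1.71, -1.62 and -2.50, as did Trbc1 with -1.46, -1.42 and -2.28 and Trbc2 with -1.35, -1.41 and -2.47.

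**Figure D5:**
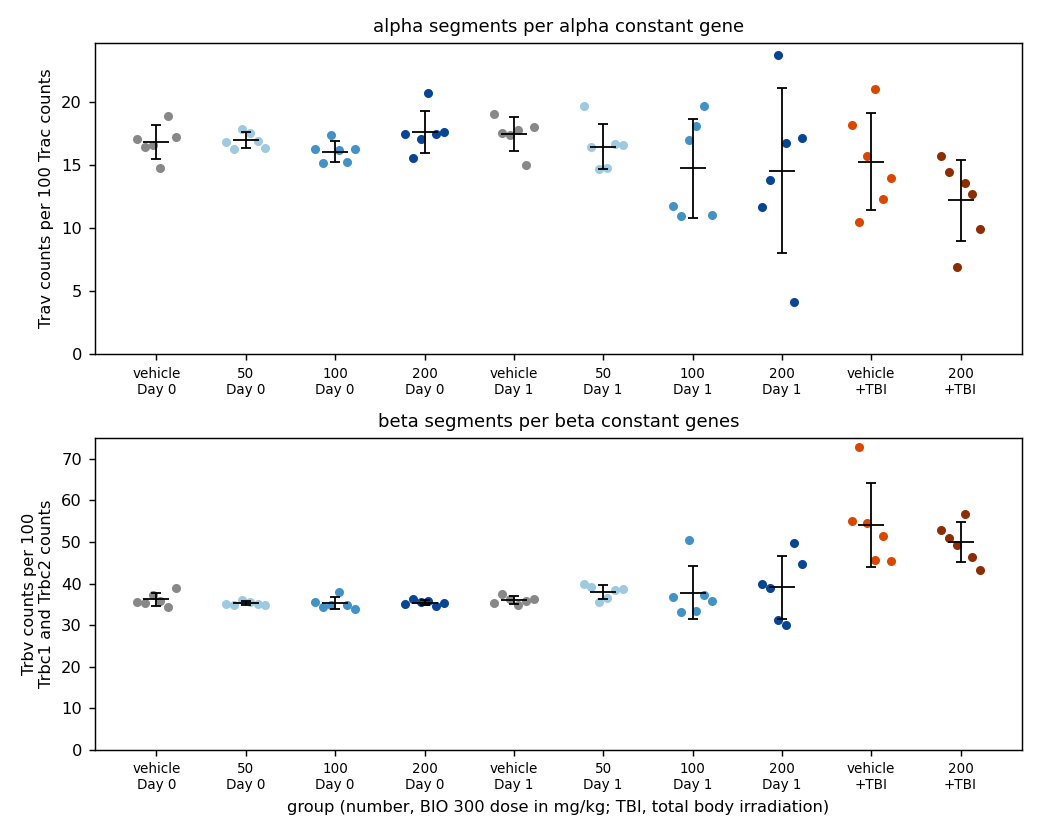
Trav counts per 100 Trac counts and Trbv counts per 100 Trbc1 and Trbc2 counts (vertical axes, ratios of counts) in each mouse of the 10 groups, points for mice and lines with bars for mean and SD of 6 mice. The Trbv ratio of both irradiated groups lies above that of all vehicle-treated mice of Day 1.

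Each dose was also compared with vehicle on Day 0, in mice that were not irradiated. At 100 and 200 mg/kg no segment was called by edgeR or DESeq2, beside 0.0% of all genes in each comparison, 1 and 0 segments had an unadjusted p under 0.05, and the medians were 0.05 and 0.04. Vehicle-treated mice of Day 1 against Day 0 gave no call by either tool, 3 unadjusted p under 0.05, a median of 0.28 and 0.0% of all genes. At 50 mg/kg on Day 0 the alpha and beta sums were 138% and 136% of the vehicle mean (221% and 217% with total counts), with overlap between mice. No segment was called, beside 4.5% of all genes (0.127% higher and 4.38% lower), although 38 of 42 log2 fold changes were above zero (median 0.43, all-gene median 0.03) and 12 had an unadjusted p under 0.05. Segments entered the set by passing the low-expression filter in any table, so high counts in this group can have admitted some of them. The number above zero is therefore a description and not a test. Trav10d, for example, had 95 counts over this group and 30 over the vehicle-treated mice of Day 0. Trbv16 had 0.505, 0.698 and 0.868 CPM in vehicle-treated mice of Day 0 and 0.912, 1.18 and 1.35 CPM at 50 mg/kg, with no overlap and a log2 fold change of 0.76 (SE 0.18, adjusted p = 0.0145) that stayed under the fold threshold. With total-count scaling the segment median was 1.09, the all-gene median 0.69, and 27 segments were called higher.

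Whether BIO 300 changed the segments in irradiated mice is addressed by the 2 irradiated groups. Of 41 segments tested none was called by edgeR or DESeq2, beside 0.0% of all 24916 genes, and 1, Trav16d-dv11, had an unadjusted p under 0.05. The median log2 fold change was 0.20 over the segments and -0.07 over all genes. Trbv13-1 had 0.574, 1.88 and 2.38 CPM after TBI with 200 mg/kg and 0.479, 1.26 and 1.80 CPM after TBI with vehicle, overlapping widely, at 0.45 on the log2 scale (SE 0.39, not called). In mice given 200 mg/kg, TBI against no TBI changed 1 of 39 tested segments, Trbv24, beside 14.9% of all genes higher and 5.73% lower, and the median was -0.35 beside an all-gene median of 0.41.

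Differences between effects were tested as interactions. The 200 mg/kg effect was lower on Day 1 than on Day 0 for 23 segments and higher for 1, Trdv5, beside 23.6% and 13.1% of all genes. For the 100 mg/kg effect the counts were 29 lower and 1 higher, again Trdv5, beside 26.3% and 15.7%. Both Trdv5 calls were lost with total-count scaling, at 0.936 (adjusted p = 0.108) for 200 mg/kg and 1.14 (adjusted p = 0.0615) for 100 mg/kg. The TBI effect was higher in 200 mg/kg mice than in vehicle-treated mice for 16 segments, 6 alpha and 10 beta, and lower for none. This stood beside 29.6% of all genes in either direction (19.5% higher and 10.0% lower). With total-count scaling 31 segments were called. For Trbv4 the difference was 3.34 (SE 0.55, adjusted p = 0.000196) and for Trbv13-1 2.26 (SE 0.59, adjusted p = 0.0055). The non-irradiated 200 mg/kg mice that enter this contrast already had low levels, as given above.

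The other genes of the receptor and of blood cells were tested in the same 3 comparisons with vehicle on Day 1 (100 mg/kg, 200 mg/kg, TBI). All 4 genes of the CD3 complex, which carries the receptor's signal, fell in each, with medians of -1.54, -1.45 and -2.18. Of 15 T cell genes 14, 13 and 14 fell, with medians of -1.89, -1.94 and -2.37, and all 8 B cell genes fell in each, with medians of -1.50, -1.74 and -3.49. Of 7 gamma delta T cell genes 3, 3 and 3 fell and 0, 0 and 2 rose, with medians of -1.29, -0.73 and -0.28. Over all genes 30.6%, 30.5% and 16.4% fell and 18.2%, 17.3% and 19.6% rose. Of the natural killer cell genes 0, 0 and 5 fell. Of 8 neutrophil genes 2, 0 and 6 rose and 0, 0 and 1 fell, with medians of -0.06, -0.15 and 2.66, and their summed level was 378 to 670 CPM in vehicle-treated mice, 473 to 805 CPM at 100 mg/kg, 368 to 846 CPM at 200 mg/kg and 1161 to 6485 CPM after TBI. Platelet genes moved opposite to the segments, with all 7 rising in each comparison (medians 3.13, 3.23 and 2.55) and summed levels of 1910 to 3856 CPM in vehicle-treated mice, 14635 to 32642 CPM at 100 mg/kg, 14141 to 24484 CPM at 200 mg/kg and 3895 to 27434 CPM after TBI. The 4 haemoglobin genes all rose at 100 and 200 mg/kg (medians 2.52 and 2.69) and none rose after TBI (median 0.33). The part of neutrophil, platelet and haemoglobin RNA in the segment levels was not tested.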

How the data were processed

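Whole blood RNA of 60 mice was measured by RNA sequencing, and each mouse was placed in its group by its label, with doses in mg/kg taken from the study's methods. The authors trimmed reads with Trimmomatic 0.36, aligned them with STAR 2.5.2b to GRCm38 and counted them with Subread 1.5.2, and the deposited values are raw counts per gene without normalization. The annotation release and the strand setting of the counting are not given in the sources used here. The labels name poly(A) selection, whereas in the methods the libraries are stranded and made after removal of ribosomal and globin RNA. The deposited differential expression tables also hold the authors' DESeq2 fold changes, p-values and normalized values. From these only gene names were used. Columns repeated between tables held identical counts.

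Members and gene lists were chosen with earlier results of these data known. Genes with at least 10 counts over the mice of a comparison were fitted with edgeR 4.0.16 (TMM, quasi-likelihood test) in R 4.3.3 with limma 3.58.1, adjusted by Benjamini-Hochberg over all genes tested and called at an adjusted p below 0.05 with a log2 fold change beyond 1 in either direction. Cages were not given per mouse, so p-values measure the spread between mice. Levels per mouse used TMM over all 60 mice. Named segments were the 5 most abundant alpha and beta segments of each group, the called members with the largest changes among those with a mean of at least 1 CPM, the delta and gamma segments, the listed beta families, members called against their class, and the constant and CD3 genes. Trbv16 on Day 0, Trbv23 and mice named singly were chosen after their values were seen. Alternatives were size factors of the relative log expression method (RLE), total-count scaling, filterByExpr, no count filter, DESeq2 1.42.0, leaving out the 10 mice with over 100 CPM of Alb, and leaving out each mouse. The ratio of Trdv5 to Trdc was added after seeing the data. The edgeR and DESeq2 fits were tested on simulated data. Figures used Python 3.11.15 and matplotlib 3.10.9.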

Additional observations from a re-analysis of the deposited data

Results flagged for a closer look

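Of 150 sets of 6 mice checked for a mouse standing apart by Dixon's criterion, 10 had one, and chance alone marks about 1 in 20 such sets. The alpha segment sum of mouse 36 (50 mg/kg, Day 1) was 13.5 CPM, against 7.93 to 9.42 CPM in the other 5 mice. Trgv2 stood apart in 3 groups, at 2.0 CPM in mouse 5 (50 mg/kg, Day 0; others 0.398 to 0.745 CPM), at 2.83 CPM in mouse 25 (vehicle, Day 1; others 0.157 to 1.16 CPM) and at 5.11 CPM in mouse 60 (TBI with 200 mg/kg; others 0.44 to 1.34 CPM). Trbv12-2 reached 2.06 CPM in mouse 26 (vehicle, Day 1; others 1.23 to 1.49 CPM), and Trbv19 reached 1.72 CPM in mouse 44 (200 mg/kg, Day 1; others 0 to 0.489 CPM). Trbv counts per 100 Trbc1 and Trbc2 counts were 50.6 in mouse 39 (100 mg/kg, Day 1; others 33.2 to 37.2) and 72.9 in mouse 50 (TBI with vehicle; others 45.5 to 55.0). The Trbv12-2 share of beta counts was 3.0% in mouse 36 (50 mg/kg, Day 1; others 4.08 to 4.72%) and 23.4% in mouse 50 (TBI with vehicle; others 7.23 to 11.8%).

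In the interaction tests by edgeR with Benjamini-Hochberg adjustment, effects differed between groups for 24 segments between Day 1 and Day 0 at 200 mg/kg (1 higher, 23 lower), for 30 segments between Day 1 and Day 0 at 100 mg/kg (1 higher, 29 lower) and for 16 segments between the TBI effect at 200 mg/kg and that with vehicle (16 higher, 0 lower).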

How the results depend on the processing

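Most values of named segments kept their direction and call: 137 of 139 under RLE, 137 of 139 with DESeq2, 131 of 139 without the count filter, 128 of 139 without the mice with high Alb, 196 of 209 with total counts, 74 of 78 with filterByExpr and 1199 of 1308 with a mouse left out. Shifts in call totals and class summaries are not counted as changes in these numbers and are given below. Called segments with total counts numbered 39 at 200 mg/kg on Day 1, 27 at 50 mg/kg on Day 0, 2 between 200 mg/kg mice with and without TBI, and 31 in the TBI interaction. With filterByExpr, which tests fewer segments, they were 16 of 25 tested at 200 mg/kg, 18 of 23 at 100 mg/kg, 22 of 24 and 12 of 17 for TBI against vehicle of Day 1 and Day 0, and 0 of 9 between the 200 mg/kg groups with and without TBI. Leaving out 1 mouse gave 22 to 31 calls in mice of 200 mg/kg, 29 to 35 in those of 100 mg/kg and 36 to 40 after TBI. The cause of these changes was not tested beyond the number of segments tested.

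Total counts moved the median alpha sum to 21.0 CPM (50 mg/kg, Day 0), 14.8 (vehicle, Day 1) and 1.53 (200 mg/kg, Day 1). The median beta sum moved to 76.6 CPM (50 mg/kg, Day 0), 60.3 (vehicle, Day 1) and 7.81 (100 mg/kg, Day 1). Member counts per 100 constant gene counts, with Trac, Trbc1 and Trbc2 alone, had medians of 30.1, 29.6, 30.2 and 30.4 on Day 0 (vehicle, 50, 100 and 200 mg/kg), 30.9, 31.8, 35.5 and 36.7 on Day 1, and 46.4 and 44.4 after TBI with vehicle and 200 mg/kg, where all constant genes gave 21.3 in vehicle mice of Day 1 and 5.14 at 100 mg/kg. All constant genes include Trdc, which rose at 100 mg/kg (log2 fold change 2.60), whereas Trac, Trbc1 and Trbc2 fell. Restricted to segments with a mean of 10 counts, alpha shares were 10.4, 10.4, 9.83 and 10.6% on Day 0, 9.39, 8.83, 4.53 and 6.45% on Day 1 and 4.14 and 4.10% after TBI, beta shares 84.2, 86.2, 83.8 and 83.7% on Day 0, 86.3, 86.4 and 82.4% on Day 1 up to 100 mg/kg and 79.2% after TBI with vehicle, and the delta share at 50 mg/kg on Day 0 2.13%.

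The log2 fold change of Trbv12-2 reversed at 200 mg/kg with filterByExpr (0.0283) and with a mouse left out (-0.18 to 0.00919), and at 100 mg/kg with total counts (-1.43), without the filter (-0.00261), without high-Alb mice (-0.00973) and with a mouse left out (-0.14 to 0.13). Trgv2 at 200 mg/kg reversed with total counts (-1.21), without high-Alb mice (-0.0295) and with a mouse left out (-0.60 to 0.89). No paired analysis was possible because every mouse has its own animal number and no number is shared between groups. Low counts limit the rarer segments, several of which had no count in single mice.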

Other observations

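In the 100 mg/kg group of Day 0, the summed beta segment level of mice with odd animal numbers (35.7 to 41.2 CPM) did not overlap that of mice with even numbers (23.6 to 29.1 CPM). The labels do not say what the numbers stand for, and this was chosen after the values were seen.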
